A study of Rattus norvegicus with 12 samples.

Results

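The 4 immediate early response (Ier) genes on the array, Ier2, Ier3, Ier5 and Ier5l, were followed in PC12 cells over the first 120 min after the addition of PACAP38. PC12 is a clonal line from a rat adrenal pheochromocytoma, a chromaffin cell tumour, and PACAP38 is the long form of pituitary adenylate cyclase-activating polypeptide, a neuropeptide under which these cells extend neurites. The genes were taken by symbol, and each has 1 probe, so that 4 of 41012 probes and 4 of 33212 gene names of the array were used. Cells given PACAP38 at 1e-07 M for 5, 10, 15, 30, 60 or 120 min were compared with control PC12 cells labelled with the same time point. By the study's text the control cells had no PACAP added, and whether they received a vehicle is not given in the sources used here.

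At each time point, RNA from PC12 cells (n = 6) made up 1 pool of PACAP38 and 1 pool of control, and both were hybridized together on 2 arrays with the dyes exchanged. Because the dye exchange repeats the same RNA, every time counts as 1 replicate, the pair of array folds is printed as the error, and no test across samples compares PACAP38 with control at one time alone. The spot p-values given below come from the scanner software's error model within 1 array and hold no spread between pools. The 12 arrays came from 3 slides of 4 arrays, and each slide carried neighbouring times (5 with 10 min, 15 with 30 min, 60 with 120 min). Of the spots, 39.8 to 48.9% per array were well above background for PACAP38 and 38.4 to 49.6% for the control. All 9 chromaffin-type markers with a probe, Th, Dbh, Ddc, Chga, Chgb, Slc18a1, Syp, Scg2 and Hand2, were above background in the control RNA on all 12 arrays. Of these 9, only Scg2, a secretogranin gene, was counted as higher by the 2-fold rule given further on, with folds of 2.05 and 2.03 at 120 min. Dbh had 3.03 and 1.83 then, and the median log2 fold of the 9 was 0.43, beside -0.02 over all measured probes. The part of this in the Ier values was not tested. Of 8 markers of other cell types, Col1a1 and Cd68 were among those above background in the control RNA on all 12 arrays, and Gfap and Ptprc on none of them. None of these 8 was counted as higher or lower, beside the counts of all probes given further on.

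Immediate early genes are transcribed from factors already present in the cell, without new protein synthesis, and PACAP reaches them through its receptor PAC1, cyclic AMP and the ERK kinases. The Ier name reflects this timing and not a common origin. Ier2, Ier5 and Ier5l encode related nuclear proteins that share an N-terminal IER domain, whereas Ier3, also called IEX-1, encodes a protein unrelated to them in sequence. IER3 is an ERK substrate that binds the B56 regulatory subunits of protein phosphatase PP2A and the survival protein MCL1. IER5 binds the B55 subunits of PP2A and favours the dephosphorylated, active form of heat shock factor HSF1. IER2 is a nuclear factor known from growth factor and cAMP responses.

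The probes lie on rat build rn4 at chr19:25160648-25160707 on the plus strand for Ier2 (NM_001009541), chr20:3076832-3076891 on the minus strand for Ier3 (NM_212505), chr13:70059706-70059765 on the minus strand for Ier5 (NM_001025137) and chr3:9516083-9516142 on the minus strand for Ier5l (NM_001025041). The place of each probe within its transcript was not analysed here. The sequences before the start sites are shown to describe the motifs they hold, among them the cAMP response element (CRE). No such sequence was available for Ier3, so Ier2 and Ier3, which differed in timing, could not be compared. Whether a motif had a part in the timing was not tested. RefSeq windows on build GRCr8, 250 bases before and 50 after the annotated start, were found for 3 members, Ier2 at chr19:40399123-40399422 (plus strand), Ier5 at chr13:69822493-69822792 (minus strand) and Ier5l at chr3:34143408-34143707 (minus strand). Capitals mark the CRE TGACGTCA and the Ets core CCGGAA in Ier2, the Sp1 box (GGGCGG, or CCGCCC on the other strand) in Ier5 and Ier5l, and the TATA box TATAAA in Ier5.
Ier2: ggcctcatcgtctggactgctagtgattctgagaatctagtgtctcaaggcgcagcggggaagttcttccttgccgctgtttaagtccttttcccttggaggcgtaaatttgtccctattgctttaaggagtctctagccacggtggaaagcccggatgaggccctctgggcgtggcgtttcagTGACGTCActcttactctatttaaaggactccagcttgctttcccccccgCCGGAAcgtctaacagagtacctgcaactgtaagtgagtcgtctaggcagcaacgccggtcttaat
Ier5: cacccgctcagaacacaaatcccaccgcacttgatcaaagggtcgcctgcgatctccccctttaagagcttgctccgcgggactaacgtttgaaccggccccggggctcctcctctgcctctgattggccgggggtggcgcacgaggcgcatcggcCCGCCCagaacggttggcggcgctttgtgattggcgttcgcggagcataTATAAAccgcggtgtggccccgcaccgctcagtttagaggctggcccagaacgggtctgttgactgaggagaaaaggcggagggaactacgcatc
Ier5l: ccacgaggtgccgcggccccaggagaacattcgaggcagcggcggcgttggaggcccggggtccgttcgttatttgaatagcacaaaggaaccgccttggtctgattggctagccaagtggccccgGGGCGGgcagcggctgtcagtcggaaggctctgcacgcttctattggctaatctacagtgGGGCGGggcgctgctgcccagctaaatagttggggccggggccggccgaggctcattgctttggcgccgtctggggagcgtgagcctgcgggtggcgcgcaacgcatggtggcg

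The CRE of Ier2 lay at -66 to -59 from the start, and 1.83% of 33469 rat windows of this length held one. Its Ets core lay at -16 to -11, a motif held by 15% of the windows. Ier5 had an Sp1 box at -94 to -89 and TATAAA at -45 to -40, and Ier5l had Sp1 boxes at -124 to -119 and at -64 to -59. An Sp1 box was held by 33.1% and TATAAA by 14.2% of all windows. The shortened CRE motif TGACG was found in Ier2 on both strands, within the CRE itself, and in 21.2% of all windows. No CArG box, the element bound by serum response factor, and no E box CACGTG were found in the 3 windows, against 1.64 and 6.42% of all. The windows of Ier5 and Ier5l held 62.3 and 66.3% G and C and that of Ier2 52.7%, with a median of 51.7% over all windows. These matches describe letters in a window and not bound sites.

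Ier2 rose within 10 min, was highest at 30 min and was still above control at 120 min, whereas the fold of Ier3 was larger at each later time point and highest at the last one. Ier5l was near control throughout, with its highest fold at 30 min, and Ier5 was too dim for a fold at 3 of the 6 time points. A gene was counted as higher where the fold was at least 2 and the spot p-value of the scanner software below 0.01 on both arrays. By this rule 0 of 4 members were higher at 5 min, where 0% of all 41012 probes were. From 10 to 30 min 1 member, Ier2, was higher, beside 0.0658% of all probes after 10 min, 0.0902% after 15 min and 0.249% after 30 min. Ier3 joined it at 60 and 120 min, which made 2 of 4 members, beside 0.87% and 1.95% of all probes. None of the members was counted as lower at any time.

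**Figure D1:**
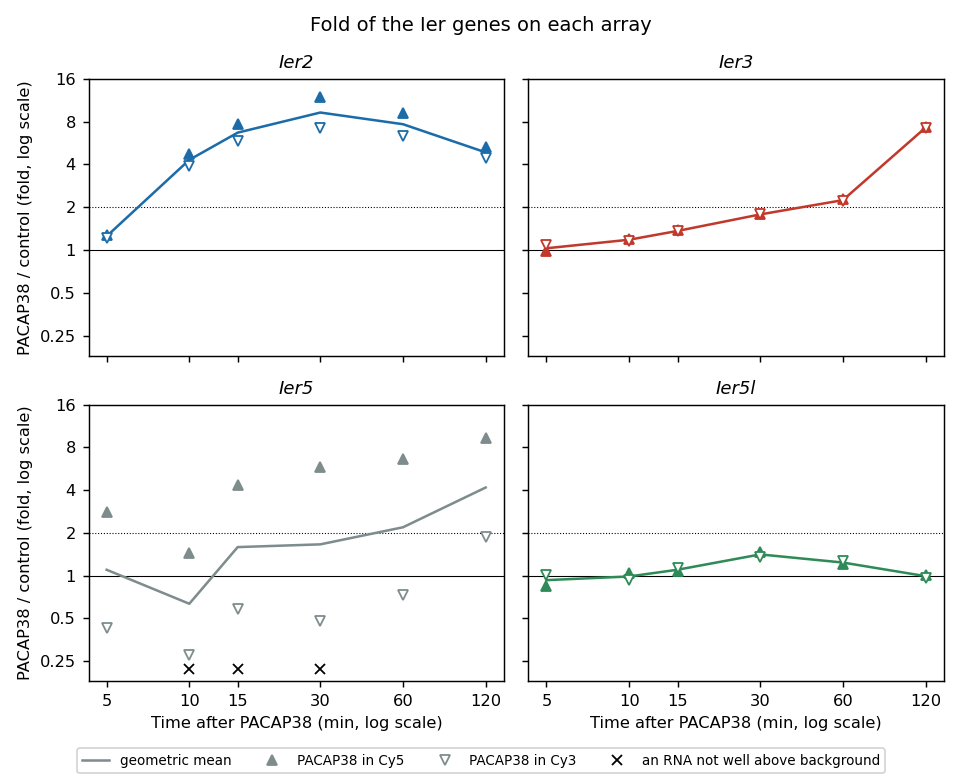
Fold of PACAP38 over control (log axis) against time after PACAP38 in min (log axis) for each Ier gene. Filled triangles are the array with PACAP38 in Cy5, open triangles the array with PACAP38 in Cy3, lines their geometric mean, the dotted line the 2-fold limit, and crosses mark time points where the control RNA or both RNAs were not well above background on either array. Ier2 peaked at 30 min and Ier3 at 120 min on both arrays, the arrays of Ier5l lay between 0.850 and 1.47, and those of Ier5 stood apart at every time point.

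Ier2 was measured in both RNAs on all 12 arrays. At 5 min its fold was 1.28 where Cy5 carried PACAP38 and 1.22 where Cy3 did, with spot p-values of 0.0883 and 0.155 from the software's error model. At 10 min the folds were 4.74 and 3.92, and at 15 min 7.65 and 5.86. The rise from 5 to 10 min, 1.79 on the log2 scale, was the largest step between neighbouring time points. At 30 min the folds reached 11.8 and 7.27, with a geometric mean of 9.28. An hour after PACAP38 they were 9.27 and 6.36, and by 120 min 5.31 and 4.46. From 10 min on, no array lay below 3.92, and both arrays rose up to 30 min and declined after it. At 120 min the mean fold was 4.87, or 52.4% of the peak. The log2 fold passed the midpoint between 0 and its peak at 8.60 min, and at 8.78 and 8.39 min on the separate arrays, by linear interpolation in min. Among probes with both RNAs measured, Ier2 ranked 11th from the top after 10 min (of 17393), 17th after 30 min (of 17105) and 191st after 120 min (of 18389).

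The processed signals of Ier2, in scanner units, show on which side the change lay. In PACAP38 RNA they went from 3842 and 3950 at 5 min to 15742 and 14369 at 10 min, reached 35343 and 36729 at 30 min and were at 26778 and 27714 by 120 min, given for PACAP38 in Cy5 and then in Cy3. On the same arrays the control signals were 3010 and 3226 after 5 min, 2983 and 5051 after 30 min and 5043 and 6216 after 120 min. The second value of each pair, the control in Cy5, was the brighter one at these times. The dye effect, taken as the mean of the 2 unturned log2 ratios of Cy5 over Cy3, was 0.03 to 0.35 on the log2 scale for Ier2, largest at 30 min, and its exchange cancels it from the geometric mean. On a log2 scale made comparable between arrays (loess within and Aquantile between arrays), the time means of the control spanned 0.37 and those of PACAP38 3.27.

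Ier3 was also measured in both RNAs on all 12 arrays. Its folds were 0.980 and 1.08 at 5 min, with PACAP38 in Cy5 and in Cy3, followed by 1.20 and 1.16 at 10 min. They rose to 1.37 and 1.35 at 15 min, to 1.78 on both arrays at 30 min and to 2.28 and 2.21 at 60 min. The arrays agreed closely, and the spot p-values fell below 0.01 on both of them at 30 min (0.000139 and 0.000132), when the fold was still under the limit of 2. At 120 min the folds were 7.34 and 7.19, with a mean of 7.26. The mean fold rose in 5 of 5 steps, by 0.20 to 0.39 on the log2 scale up to 60 min and by 1.69 from 60 to 120 min. This last step was 1.69 and 1.70 on the separate arrays. The midpoint of the log2 rise was passed at 69.4 min, against 8.60 min for Ier2, but no later time was sampled, so a later peak of Ier3 would not have been seen. In rank among the probes with both RNAs measured, Ier3 was 1170th at 10 min, 148th at 30 min, 339th at 60 min and 112th at 120 min. With normexp background correction and median centring the 60 min call of Ier3 was lost (mean fold 2.12), and the folds at 120 min became 5.94 with loess and 5.12 with median centring.

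The signals place the Ier3 change in the PACAP38 RNA. The processed signal of PACAP38 RNA was 948 and 1160 after 5 min, 2482 and 2560 after 60 min, and then 12535 and 10860 after 120 min. The control had 968 and 1074 on the arrays of 5 min, 1089 and 1159 on those of 60 min and 1709 and 1511 on those of 120 min. On the scale made comparable between arrays, the control means of Ier3 spanned 0.33 log2 units and the PACAP38 means 2.89. The dye effect of Ier3 lay between -0.07 and 0.02.

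**Figure D2:**
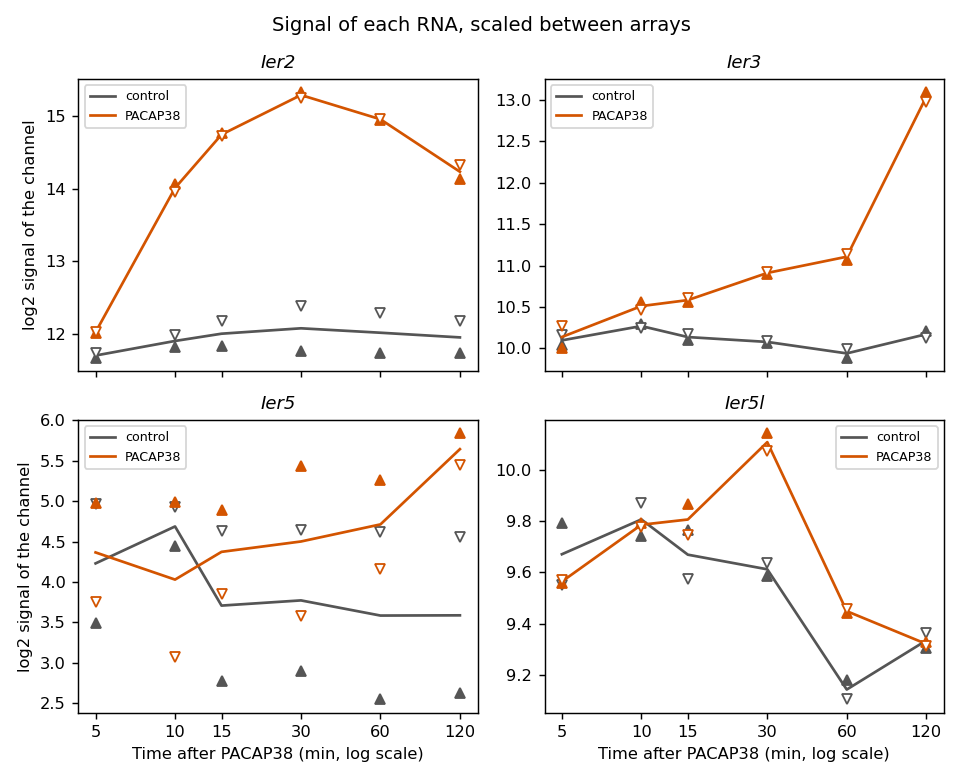
Signal of each RNA on the log2 scale, normalized within and between arrays, against time in min (log axis), with a separate vertical range for each gene. Grey is control and orange PACAP38, filled triangles the array with PACAP38 in Cy5, open triangles the array with PACAP38 in Cy3, and lines the means of both arrays. The control means of Ier2 and Ier3 spanned 0.37 and 0.33, those of Ier5l 0.66, and the points of Ier5 separated by dye.

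The order of Ier2 and Ier3 turned between 60 and 120 min. On the log2 scale the fold of Ier2 exceeded that of Ier3 on the same array by 0.38 and 0.18 after 5 min and by 1.98 and 1.75 after 10 min. In the mean of both arrays the gap was widest after 30 min, with 2.74 and 2.03, and it was 2.02 and 1.53 after 60 min. At 120 min the difference was -0.47 and -0.69, so Ier3 had the higher fold on both arrays. Each time point rests on 1 pair of pools, and the difference was not tested across samples.

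**Figure D3:**
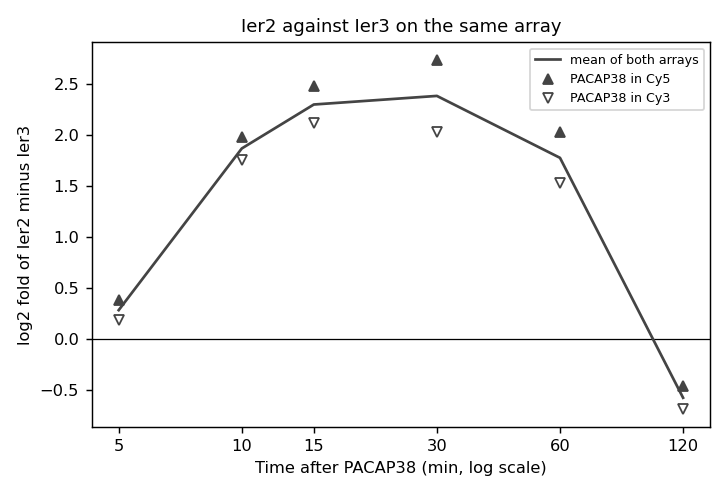
Difference of the log2 folds of Ier2 and Ier3 on the same array against time in min (log axis), with the mean of both arrays as a line. The difference was above 0 on both arrays from 5 to 60 min and below 0 on both at 120 min (-0.47 and -0.69).

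Ier5l, the Ier5-like gene, was measured in both RNAs on all 12 arrays and was counted at none of the 6 time points. The early times gave folds of 0.850 and 1.02 (5 min), 1.04 and 0.938 (10 min), and 1.07 and 1.13 (15 min). At 30 min they were 1.47 and 1.35, with spot p-values of 0.00860 and 0.0362. The arrays of 60 min gave 1.20 and 1.28, and those of 120 min 1.02 and 0.965. The mean fold was highest at 30 min, 1.41, the same time point as for Ier2, and the folds of both arrays at 30 min lay above those at each of the other 5 times. After normexp the mean fold at 30 min was 1.27 with loess, and with median centring the highest fold, 1.32, was at 15 min. Under median centring the median of all measured probes stood at 0.11 on the log2 scale at 15 min, and relative to that median Ier5l was at 1.22 at 15 min and 1.24 at 30 min. A drift was seen in the control RNA of Ier5l as well. On the scale comparable between arrays, its control means spanned 0.66 log2 units, highest at 10 min and lowest at 60 min, nearly as much as the 0.79 of its PACAP38 means. Time points on different slides cannot be told apart from slides in this drift.

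Ier5 gave no fold before 120 min that held on both arrays. Its processed signals were 5.25 to 33.4 in control RNA and 8.39 to 86.7 in PACAP38 RNA, and on 11 of 12 arrays the Cy5 channel was the brighter one whichever RNA it held. The dye effect of Ier5 was 1.16 to 1.80 on the log2 scale, against at most 0.35 for the other members. At 5 min each RNA was well above background on 1 array, and the folds were 2.81 and 0.430. At 10 and 15 min both RNAs failed to stand well above background on both arrays, and at 30 min PACAP38 RNA was so on 1 array and the control on none, so no fold is given there. At 60 min the folds were 6.57 where Cy5 carried PACAP38 and 0.728 where Cy3 did, on opposite sides of 1, with a mean of 2.19. At 120 min both arrays lay above 1 for the first time, with folds of 9.33 and 1.86 and spot p-values of 4.08e-07 and 0.0237. PACAP38 RNA was then well above background on both arrays and the control on 1, the mean was 4.17, and the gene was not counted. With normexp, whose offset of 50 is of the size of these signals, the fold at 120 min was 1.15 with loess and 1.13 with median centring. The probe of Ier5 held 76.7% G and C and that of Ier5l 68.3%, against 40% for Ier2, 41.7% for Ier3 and a median of 43.3% over all probes. Whether base composition had a part in the low signal was not tested.

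Across the 6 pairs of pools, the time course of each member was set against that of all 20203 probes that passed the background filter, with limma and Benjamini-Hochberg adjustment over all of them. The slope of log2 fold on log2 time was 0.55 ± 0.10 (SE, n = 6 pairs of pools) per doubling of time for Ier3, with an adjusted p of 0.0694 by limma, 0.47 ± 0.11 for Ier5 (adjusted p = 0.083), 0.38 ± 0.19 for Ier2 (adjusted p = 0.246) and 0.05 ± 0.06 for Ier5l (adjusted p = 0.574). Ier5 passed the background filter at 5 and 60 min, through whichever RNA was in Cy5, and at 120 min. All fits of Ier5, its mean included, hold the times at which no fold is given above, and its slope was 0.044 with normexp and loess, 0.042 with median centring and 0.066 with slide as a block. The slope of Ier2 was 0.038 without 5 min and 0.71 without 120 min, and that of Ier3 was 0.32 without 120 min. For Ier5l it ranged from 0.01 without 5 min to 0.15 without 120 min, and was 0.02 with loess. None passed 0.05, while 147 probes, 0.728%, did, and 28.7% of all probes had an unadjusted p below 0.05. These 147 calls depended on the time points kept: 153 probes passed without 5 min, 1 without 60 min and 0 without 10, 15, 30 or 120 min. With time in min in place of log2 time, as many as 5335 of the 20203 probes passed by limma. Ier3 (adjusted p = 0.0024) and Ier5 (adjusted p = 0.0215) were among them. Ier3 also passed at 0.0389 among the 13939 probes with both RNAs above background on all arrays, of which 976 passed. The adjusted p over all alternatives ranged from 0.0024 to 0.894 for Ier3.

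The quadratic term over log2 time, negative for a course that bends downwards, was -0.35 ± 0.02 (SE) for Ier2 and 0.16 ± 0.05 for Ier3. For Ier5l it was -0.08 ± 0.03 and for Ier5 0.10 ± 0.08. The upward bend of Ier3 rested on the 120 min pools, without which its term was 0.03, while it was 0.24 without 5 min. That of Ier5l was -0.04 without 120 min and -0.15 without 5 min, and that of Ier5 was 0.01 with normexp under either scaling, 0.24 with slide as a block, -0.04 without 5 min and -9.65e-05 with time in min. Ier2 had the 3rd smallest p of 20203 probes (unadjusted p = 1.6e-05 by limma), with an adjusted p of 0.0837, and Ier3 reached 0.209. By limma 0 probes, 0%, passed after adjustment, and 3625, or 17.9%, had an unadjusted p below 0.05. The bend of Ier2 was among the 3 of 20203 probes that passed with normexp and loess (adjusted p = 0.0203) and the 13 of 13939 that passed with the stricter background filter (0.00735). Over all alternatives its adjusted p ranged from 0.00735 to 0.549, the latter with slide as a block. The mean log2 fold over the 6 time points was 2.27 ± 0.36 (SE) for Ier2, 0.93 ± 0.36 for Ier3, 0.68 ± 0.32 for Ier5 and 0.13 ± 0.09 for Ier5l. Without 120 min it was 0.54 for Ier3 and 0.40 for Ier5, and without 30 min 0.06 for Ier5l. With normexp the mean of Ier5 was 0.05 with loess and 0.04 with median centring. By limma 0 probes, 0%, passed for this mean, with 1845 or 9.13% at an unadjusted p below 0.05, and Ier2 ranked 29th (adjusted p = 0.311). Without the 5 min pools 15 probes passed, with Ier2 among them at a mean of 2.66 and an adjusted p of 0.0123. The SE of this mean takes in the change over time, so a course that changes, as that of Ier2 did, widens it.

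Ier2 was counted as early as any of the other immediate early genes, and Ier3 later than most of those that were counted. Of 26 such genes listed, 25 had a probe. None was counted after 5 min, 9 after 10 min, 13 after 15 min and 17 after 30 min, followed by 18 and then 17 after 60 and 120 min, all of them higher. The shares of all probes counted as higher at these times were 0, 0.0658, 0.0902, 0.249, 0.87 and 1.95%. The median log2 fold of those measured was 1.18 after 10 min, 3.56 after 30 min and 3.66 after 120 min, and that of all measured probes stayed between -0.02 and 0.00. Of the 19 listed genes counted at 1 or more times, 4 were highest at 30 min, as Ier2 was, namely Arc, Egr1, Fos and Jun. Another 8 were highest at 60 min and 7 at 120 min. First counted at 10 min, with Ier2, were 9 of the 19, and only Egr2 was first counted at 60 min, with Ier3. Mcl1 followed at 120 min. The highest measured fold of the list was that of Nr4a3, an orphan nuclear receptor, at 122 at 120 min, and the lowest measured at that time was that of Srf, serum response factor, at 0.579. The peak of Ier2 (9.28) was close to that of the AP-1 subunit Jun (9.38) and under that of Fos (21.3), all at 30 min.

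**Figure D4:**
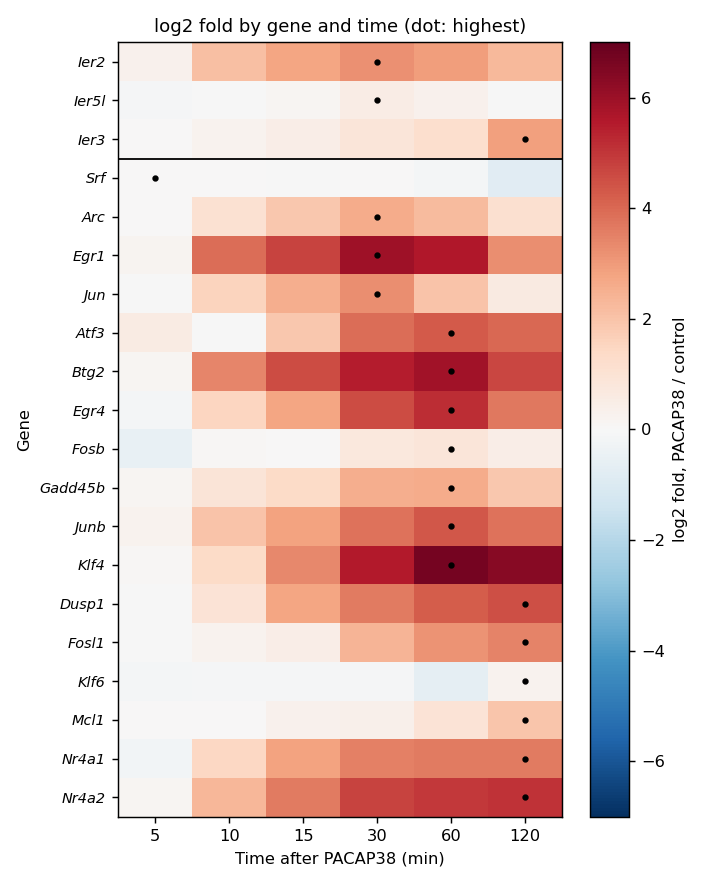
Colour map of log2 fold of PACAP38 over control for 3 Ier genes (above the line) and the 17 listed immediate early genes with both RNAs measured at all 6 time points, with time in min across and a dot at each gene's highest fold. Ier2 shared the 30 min column with Arc, Egr1 and Jun, and Ier3 the 120 min column with Dusp1, Fosl1, Mcl1, Nr4a1 and Nr4a2, among others.

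The genes whose 6 log2 folds ran most like those of each member were taken from 947 genes with both RNAs measured on all arrays and at least 1 counted-size fold. These correlations over 6 shared time points describe likeness of course only. For Ier2 they were the zinc finger factor Egr1 (Pearson r = 0.983), the antiproliferative gene Btg2 (0.977), the unnamed transcript TC630385 (0.971), Arc (0.954) and Nr4a1 (0.903). Egr1 had folds of 15.3, 26.8, 60.7, 48.6 and 9.72 from 10 to 120 min, larger than those of Ier2 at each of these times and with the same peak at 30 min. For Ier3 they were Josd1, a deubiquitinase (0.995), Map2k3, a kinase upstream of p38 (0.991), the transporter Slc4a11 (0.989), Ccsap (0.988) and Srrd (0.987). At 120 min these 5 had folds of 2.79, 2.70, 5.56, 4.48 and 2.17, each under the 7.26 of Ier3. For Ier5l they were Id3, an inhibitor of helix-loop-helix factors (0.955), TC585758 (0.944), Arc (0.930), TC630385 (0.893) and TC613578 (0.893), and Id3 reached 2.10 at 30 min. For Ier5, on folds that are partly not above background, they were Insig1, Tspan31, Hr, Mgat1 and Tmub2, with r between 0.956 and 0.960. Among the members themselves r was 0.797 for Ier2 with Ier5l, 0.887 for Ier3 with Ier5 and 0.319 for Ier2 with Ier3.

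Of the known partners of the Ier proteins 1 was counted, at 120 min. Of 10 genes for kinases, PP2A subunits and other partners, 0 were counted up to 60 min and 1 at 120 min (0.87% and 1.95% of all probes at these times), Mcl1, whose protein binds IER3. Ier3ip1 was not above background at any time. Mcl1 had folds of 1.92 and 2.01 at 60 min and 3.56 and 3.99 at 120 min, so it was highest at the same time as Ier3. The PP2A catalytic subunit gene Ppp2ca was at 1.37 at that time. The median log2 fold of the 9 partners measured at 120 min was -0.01, beside -0.02 over all measured probes. Of 8 genes for HSF1 and its targets, 0 were counted up to 60 min and 1 at 120 min, the small heat shock protein gene Hspb1, at 3.49 and 2.76, beside the same shares of all probes. Their median log2 fold was -0.02 at 120 min, as over all measured probes. Hsf1 itself was at 0.919 and the HSF1 target Dnajb1 at 0.915 at 120 min.

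The genes nearest to the members on the chromosome were counted at none of the 6 time points. Of all 41012 probes, 0 to 1.95% were counted as higher at a time point and 0 to 626 probes as lower. These genes lay from 267 bases (Flot1) to 347515 bases (Ntmt1) from the member, with Ddr1 at 112892 and Cacna1e at 206655. By the order in RefSeq on GRCr8, and taking the nearest gene with a probe on each side, the genes were Nacc1 and Cacna1a for Ier2, Flot1 and Ddr1 for Ier3, Cacna1e and Mr1 for Ier5, and Ptpa and Ntmt1 for Ier5l. Flot1, the neighbour of Ier3, was at 0.928 at 60 min and 0.833 at 120 min, when Ier3 was at 2.24 and 7.26. Ptpa, an activator gene of PP2A next to Ier5l, was at 1.15 at 30 min and 1.34 at 120 min. Nacc1 and Cacna1a next to Ier2 and Cacna1e next to Ier5 were mostly not above background, and Mr1 was so at none of the times, so little can be read from the neighbours of Ier2 and Ier5.

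The probes also differed in a short motif. The pentamer ATTTA, the core of AU-rich elements that mark short-lived transcripts, was found 1 time in the Ier2 probe, 2 times in the Ier3 probe and 0 times in those of Ier5 and Ier5l, and 7.61% of all probes of 60 bases held it. These bases cover only the probes, and the rest of each transcript was not searched.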

How the data were processed

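The authors hybridized pooled RNA to 2-colour Agilent whole rat genome arrays and extracted signals with Agilent's Feature Extraction. Its version is given as 11.0.1.1 in the submitters' processing notes and 12.0.3.1 in the file headers, and the study's text names another one. The deposited processed intensities are background-subtracted and LOWESS dye-normalized, and the deposited mean and background intensities are not normalized. The spot p-values were computed by the authors' software for each log ratio. A table of log10 ratios, Cy5 over Cy3, was also deposited, and the files carry flags for control spots, outliers, saturation and background.

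Of 45018 spots per array, 1639 control spots and 197 to 267 outlier spots were left out, 0 were saturated, and spots of 1 probe were averaged. Each log2 ratio was turned to PACAP38 over control, and folds are geometric means of both arrays. Counted genes had to pass 2-fold up (or 0.5 down) together with a spot p-value below 0.01 on each array. An RNA is measured at a time point if well above background on at least 1 array, and no fold is given without both RNAs measured, or as a bound under 1. The limma 3.58.1 fits (R 4.3.3) used 6 dye-averaged log2 folds. They were also run on simulated data, but with planted slopes and bends larger than those of the members. That run therefore does not tell whether slopes and bends of the members' size would be found. Probes entered if some channel was well above background on both arrays of any time, and the adjusted p limit was 0.05. The quadratic term was fitted on centred log2 time, which gives the p of an orthogonal polynomial. Python 3.11.15, pandas 2.3.3, numpy 2.4.6 and matplotlib 3.10.9 served for the remaining work.

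Gene names come from the files, with 19268 probes matched to RefSeq by accession, and array positions are on rn4. The rule for named genes took all members, the highest and lowest of each list, the 5 most alike in course and the nearest neighbours with a probe. A few genes under this rule are not reported here. Genes named beside these, such as Fos, Jun, Egr2 and Ppp2ca, were chosen after their values were seen. The members and lists were chosen with earlier results of these data known. Alternatives were other limits, 1 array alone, normexp (offset 50) with loess or median centring, the table of ratios, other filters, time in min, a block for the slide and the omission of each time in turn. The number of arrays limits the precision, limma's p-values measure only the spread between these pools, spot p-values only the error within an array, and the proteome was not analysed here.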

Additional observations from a re-analysis of the deposited data

How the results depend on the processing

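The counts of members and the peak times kept their values under most alternatives. At 30 min 2 members instead of 1 were counted as higher with a limit of 1.5 (Ier3 added) and on the array with PACAP38 in Cy5 alone (Ier5 added), and at 60 min 1 instead of 2 with normexp and median centring. On the array with PACAP38 in Cy5 alone, Ier5 was also added at 60 and 120 min, for 3 instead of 2 members. The peak fold moved by more than the spread of both arrays only with normexp: to 5.94 (loess) and 5.12 (median centring) for Ier3, 1.15 and 1.13 for Ier5, and 1.27 and 1.32 for Ier5l, the last at 15 in place of 30 min. The peak fold of Ier2 was 8.54 and 8.14 there. The number of probes with a slope past the threshold, 147, was 27 with loess, 1 with median centring, 0 without the filter and with slide as a block, 976 with the stricter filter, 5335 with time in min, and 0 to 153 when 1 time point was left out. For curvature it was 3 with loess and 13 with the stricter filter in place of 0, and 0 whichever time point was left out. For the mean it was 0 to 15 when 1 time point was left out, with the 15 without 5 min. The sign turned for the slope of Ier5l with median centring (-0.0431) and for the curvature of Ier5 in min (-9.65e-05) and when 5 min was left out (-0.0441, in a range of -0.0441 to 0.151 over the times left out), none of them past the threshold. The causes were not tested. Other probes of the genes could not be tried, since each has 1. Control and PACAP38 were paired on each array in all fits, and the labels carry no replicate numbers for a further block.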
